A study of Mus musculus with 24 samples.

Results

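The genes described here prepare replication origins for use: the 6 subunits of the origin recognition complex (Orc1 to Orc6), the loading factors Cdc6 and Cdt1, the Cdt1 inhibitor geminin (Gmnn) and the ubiquitin ligase adaptor Dtl. They were taken by gene symbol, with no use of their measured values, and all 10 matched a row of the table of 17721 genes. They were measured in back skin epidermis of mice called EpiKO. These were C57BL/6 males aged 8 weeks in which Bmal1, an activator of the circadian clock (gene symbol Arntl), was deleted by a Cre recombinase under the keratin 14 promoter. That promoter is active in basal keratinocytes, so immune cells, melanocytes and other cells of the preparation that do not come from these are not targets of the deletion. Mice lived in 12 h of light and 12 h of dark, and 4 animals were taken every 4 h, counted in zeitgeber time (ZT) with lights on at ZT0, which gave 24 libraries of polyadenylated RNA. The groups are EpiKO at ZT0, ZT4, ZT8, ZT12, ZT16 and ZT20, and the authors compared their daily course with that of WT epidermis, whose libraries are not samples of this series.

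Before a cell enters S phase, the origin recognition complex sits on origins and, with Cdc6 and Cdt1, loads the MCM helicase, a step called licensing. Orc1 to Orc5 and Cdc6 are built around related ATPase folds, while Orc6 is of a different fold. After S phase has begun, reloading is prevented: geminin binds Cdt1, and Dtl (also called Cdt2) brings Cdt1 to the CUL4 ubiquitin ligase on replicating DNA. Orc1, Cdc6, Cdt1, Gmnn and Dtl are classical targets of E2F factors, which raise their transcription around the G1 to S transition. In mouse epidermis the share of basal keratinocytes in S phase is known to vary over the day. In bulk epidermis, fewer cells in a phase of the cycle and less RNA per cell cannot be told apart.

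The measurements are the authors' deposited results of dryR, which fits a 24-h cosine curve to each genotype and weighs 5 models: no rhythm, a rhythm in EpiKO only, in WT only, the same rhythm in both, or different rhythms. Weights run from 0 to 1, and a gene was given a class when a weight reached 0.5. Amplitudes are peak-to-trough folds of the fitted curve. The table holds no value for a single library, so depth is unknown and the spread between animals cannot be shown directly. Likelihood ratios, and from them the spread, were recovered from the weights, which behave as those of a fit to 48 libraries. They give a test of a rhythm in each genotype and of a difference in rhythm, with Benjamini-Hochberg adjustment over all 17721 genes and a threshold of 0.05, and 95% intervals of amplitudes. The targeted gene itself, Arntl, had in the authors' deposited table a WT rhythm of 4.65-fold that peaked at ZT22.7, none chosen in EpiKO, and a mean level (log2) of 9.65 in EpiKO against 9.50 in WT. Reads counted over the whole gene do not test a deletion of part of it. In the authors' deposited table the keratinocyte genes Krt5 and Krt14 were at high mean levels, Krt5 at 17.7 (log2) in EpiKO against 17.8 in WT and Krt14 at 16.5 in each. Of 5 basal keratinocyte genes, the mean was called lower in EpiKO for 2, higher for 1 and equal for 2. Of 4 measured suprabasal genes, it was lower for 2, higher for 1 and equal for 1. Among markers of other cell types, a higher mean in EpiKO was called for 4 of 5 Langerhans cell genes and 2 of 3 measured T cell genes. It was also called for 3 of 5 fibroblast and 4 of 5 endothelial genes, against 32.7% of all genes, and none of these lists had a lower one. The endothelial genes were at low mean levels (log2), from -2.13 to 2.91 in WT and from -1.16 to 3.42 in EpiKO. The fibroblast gene Lum was also low, at 1.90 in WT and 3.19 in EpiKO. Lower means, the call for 37.4% of all genes, were found for 2 of 5 hair follicle genes, 2 of 5 melanocyte genes and 2 of 5 muscle genes, with 1 muscle gene higher and the rest equal. The summed level (log2) in WT and EpiKO was 10.9 and 9.96 for hair follicle genes, 9.61 and 8.48 for melanocyte genes and 9.90 and 3.25 for muscle genes, of which Tyr (8.65 and 3.60) and Acta1 (9.90 and 2.21) made up most of the melanocyte and the muscle difference in that table.

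In WT epidermis 6 licensing genes had a rhythm that passed the likelihood ratio test, all with a peak in the first part of the dark phase, and for 5 of these 6 the rhythm differed in EpiKO, with Orc6 as the exception. By the deposited weights, Orc1, Orc6 and Gmnn were rhythmic in WT only, a class that held 8.41% of all genes. Cdc6, Cdt1 and Dtl had different rhythms, the class of 2.65% of all genes. Orc2 shared 1 rhythm between the genotypes (16.7% of all genes), Orc4 a rhythm in EpiKO only (4.31%), and Orc3 and Orc5 had none (56.7%). By the likelihood ratio test, 6 of 10 members had a rhythm in WT against 21.5% of all genes, 1 of 10 had one in EpiKO against 12.4%, and the rhythm differed between genotypes for 5 of 10 against 5.17%. With no adjustment, a rhythm in EpiKO had a p under 0.05 for 5 of 10 members, against 25.5% of all genes. When genes under the 0.25 quantile of mean level were left out, a rhythm in EpiKO passed for 4 of 10 members (Cdc6, Orc2, Orc4 and Cdt1), against 18.1% of the genes then tested. The members that changed were the ORC subunit Orc1, the loading factors and their inhibitors, while most of the ORC scaffold varied little over the day.

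**Figure D1:**
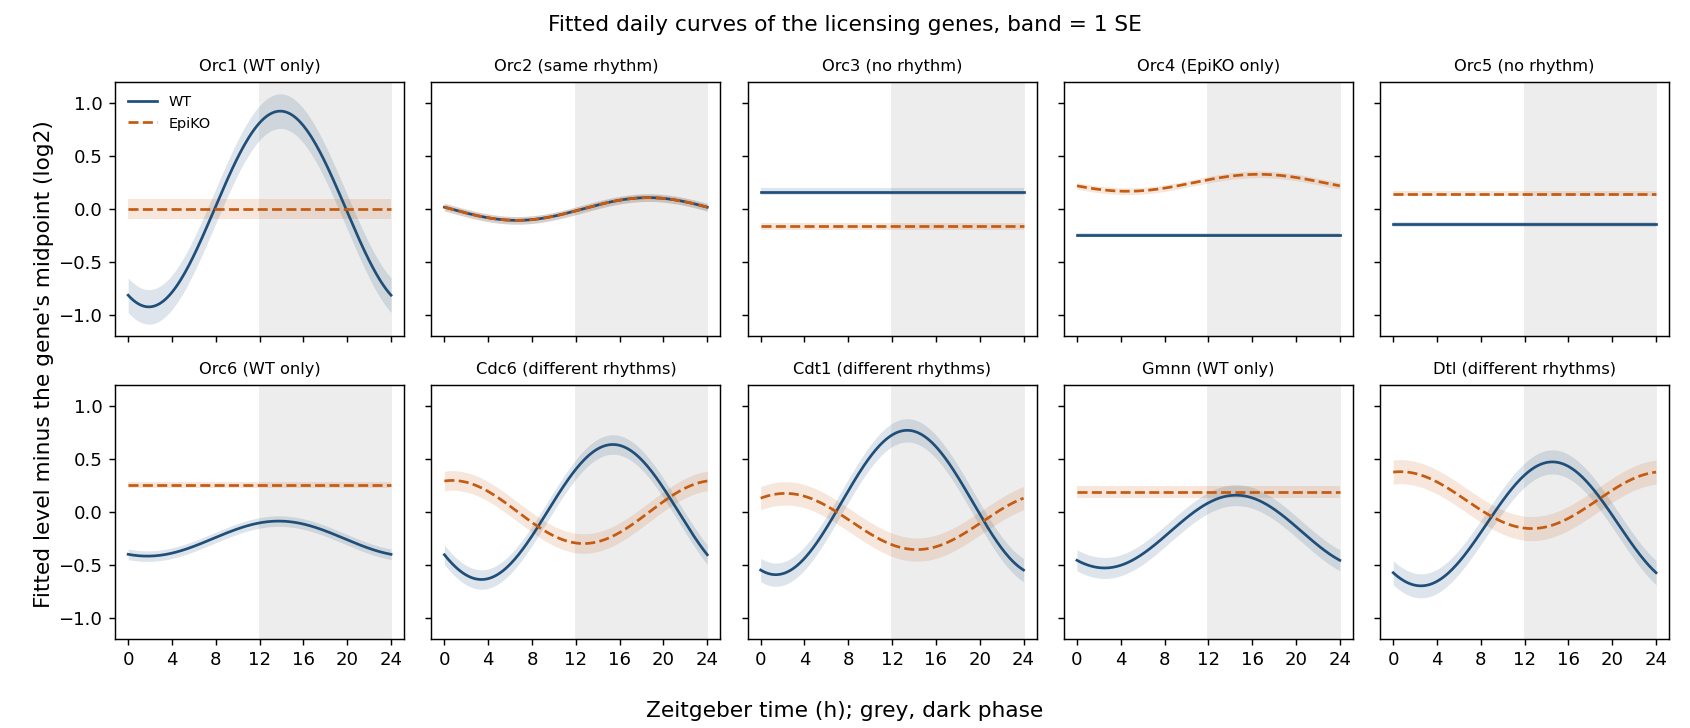
Fitted daily curves of the 10 licensing genes in WT (solid) and EpiKO (dashed), as log2 level minus the midpoint of both mean levels, against zeitgeber time in hours, with a band of 1 SE. Orc1, Cdc6, Cdt1, Gmnn and Dtl crest in WT between ZT13.4 and ZT15.4, and the EpiKO curves of Cdc6, Cdt1 and Dtl crest between ZT0.648 and ZT2.26; flat lines are set by the chosen model.

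Promoter sequences were looked up for the members because they differ in rhythm, and E2F binding words are the element that these genes are best known for. RefSeq start sites on GRCm38.p6 were found for 9 of 10 members, in 12 windows of 300 bases (250 before to 50 after the start), and Gmnn had no entry. The words TTTCCCGC, TTTGGCGC, TTTCGCGC and TTTGCCGC, searched on both strands, occurred in 5 of the 12 windows, against 2.26% of 32851 promoters. By gene this was 5 of 9 members, against 3.92% of 13582 genes of the table. The stretch around each word, of 28 or 108 bases, is shown 5′ to 3′ on the gene's strand, with the E2F word in capitals: Orc1 (chr4:108579337-108579444, plus strand), Dtl (chr1:191575535-191575642, minus strand), Cdc6 (chr11:98908003-98908030, plus strand), Cdt1 (chr8:122568037-122568064, plus strand) and Orc3 (chr4:34614966-34614993, minus strand).
Orc1: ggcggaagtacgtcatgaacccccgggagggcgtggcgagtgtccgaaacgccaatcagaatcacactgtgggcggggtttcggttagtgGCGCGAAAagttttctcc
Dtl: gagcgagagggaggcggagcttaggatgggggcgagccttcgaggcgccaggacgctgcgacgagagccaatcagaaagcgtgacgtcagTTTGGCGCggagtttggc
Cdc6: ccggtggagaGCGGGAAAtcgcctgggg
Cdt1: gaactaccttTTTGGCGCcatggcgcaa
Orc3: catgcctcccTTTCCCGCacgccccgcc
The word starts at position -27 from the RefSeq start in Orc1, -8 in Dtl, -138 in Cdc6, 33 in Cdt1 and -41 in Orc3. In Orc1 and Cdc6 the RefSeq start (108579454 and 98908151) lies inside the GENCODE M21 gene, and the word follows the GENCODE start (108579423 and 98907801). The Orc3 word lies inside the neighbouring gene Rars2, which starts at 34614957. Of the 5 members with a word, Orc1, Cdc6, Cdt1 and Dtl passed the test of a difference in rhythm and Orc3 had no rhythm. Of the 4 matched members without a word (Orc2, Orc4, Orc5 and Orc6) none passed that likelihood ratio test, with Orc6 at an adjusted p of 0.0754. A link between words and rhythm was not tested, over these members or over all genes. The E-box CACGTG, the letters that BMAL1 with its partner CLOCK binds, was found in 1 of 9 members, Orc4, at position -33, against 10.5% of the genes of the table and 7.15% of all promoters. The words TTTGAA and TTCGAA, searched on both strands as the cell cycle homology region of mitotic genes, were in 0 of the 12 windows and in 19.2% of all promoters. A match is a description of the letters, and no match speaks only of these windows.

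Orc1, the largest ORC subunit, is at chr4:108579423-108614833 on the plus strand (mm10, GENCODE M21) and had the largest amplitude of the members. Its fitted WT level was 4.63, 4.66, 5.47, 6.26, 6.23 and 5.42 (log2) from ZT0 to ZT20 in steps of 4 h, low in the first part of the light phase and high from ZT12 to ZT16, while the EpiKO level was 5.44 throughout. In the authors' deposited table the WT-only model had a weight of 0.880, and the WT curve was 3.60-fold with a peak at ZT13.9. The recovered 95% interval of that amplitude was 2.47- to 5.11-fold, with an SE of 0.55 h for the peak (likelihood ratio test, adjusted p = 2.38e-09). Over all genes rhythmic in WT the median amplitude was 1.29-fold, and 97.0% were below Orc1. When a rhythm was allowed in EpiKO, the recovered amplitude was 1.43-fold with an upper bound of 1.98-fold and did not pass (adjusted p = 0.385). The rhythms differed between genotypes (adjusted p = 1.97e-07): the fitted EpiKO level was 0.81 above WT at ZT0 and 0.81 below it at ZT12 (SE 0.19, log2). Of the 51-base windows of its transcripts, 7.15% are shared with another gene, Gm12743, on the opposite strand.

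Among the other ORC subunits, Orc6 alone had a WT rhythm that passed the test. Orc6, which is needed with the rest of the complex for loading, lies at chr8:85299632-85308278. Its fitted WT level ran from 8.25 at ZT0 to 8.54 at ZT12 (log2), and every fitted WT value was below the EpiKO level of 8.90. In the authors' deposited table its WT curve was 1.26-fold with a peak at ZT13.7 and a weight of 0.959 for a rhythm in WT only. The recovered interval was 1.11- to 1.40-fold in WT (adjusted p = 0.00263), and in EpiKO the amplitude was 1.03-fold with an upper bound of 1.11-fold (adjusted p = 0.976). The test of the difference in rhythm missed the threshold for Orc6 (adjusted p = 0.0754), so its place among genes rhythmic in WT only rests on the weights. Of all genes rhythmic in WT, 43.4% had a smaller amplitude than Orc6.

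The core subunits Orc2 to Orc5 had small or no rhythms. Orc2 (chr1:58462771-58505109) followed a shared curve of 1.16-fold peaking at ZT18.6 in both genotypes, and the authors' deposited table gave that model 0.947 of the weight. The shared curve passed against no rhythm for Orc2 (likelihood ratio test, adjusted p = 0.00121), as it did for 28.4% of all genes. That test does not ask whether the rhythms are alike: Cdc6, whose rhythms differed, passed it too (adjusted p = 0.00148). Neither genotype passed alone for Orc2 (adjusted p = 0.0776 in WT and 0.0545 in EpiKO, the second at 0.0423 without genes of low level). For Orc2, 26.6% of windows are shared with Nif3l1 on the opposite strand, so its value is uncertain where counting ignored strand. Orc4 (chr2:48902824-48950277) was assigned a rhythm in EpiKO only, of 1.12-fold with a peak at ZT16.6, at a weight of 0.542 in that table. Neither the EpiKO rhythm of Orc4 (adjusted p = 0.0553, and 0.0428 without genes of low level) nor its difference from WT (adjusted p = 0.654) passed, and 5.77% of its windows are shared with Acvr2a and Mbd5. Orc3 (chr4:34570796-34614944) and Orc5 (chr5:22486485-22550429) had no rhythm, the model that the authors' deposited table weighted at 0.804 and 0.926. The upper bounds of their amplitudes were 1.28-fold in WT and 1.09-fold in EpiKO for Orc3, and 1.12-fold and 1.14-fold for Orc5.

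Cdc6, the ATPase that joins ORC to load the helicase, kept a daily rhythm in EpiKO, at a smaller amplitude and with a peak 9.32 h later. It lies at chr11:98907801-98923940 on the plus strand. Its fitted WT level was 6.13, 5.90, 6.30, 6.93, 7.16 and 6.75 (log2) from ZT0 to ZT20, and in EpiKO it was 6.82, 6.72, 6.43, 6.24, 6.34 and 6.63. WT was lowest at ZT4 and highest at ZT16, and EpiKO was highest at ZT0 and lowest at ZT12. In the authors' deposited table the curve was 2.42-fold with a peak at ZT15.4 in WT and 1.51-fold with a peak at ZT0.704 in EpiKO, 9.32 h later, and the weight of different rhythms was 0.981. Recovered intervals were 1.96- to 2.95-fold in WT (adjusted p = 3.89e-14) and 1.21- to 1.83-fold in EpiKO (adjusted p = 0.00691), and the SE of the shift was 1.06 h. The difference in rhythm passed (adjusted p = 1.09e-13). The fitted EpiKO level was 0.82 above WT at ZT4 and 0.82 below it at ZT16 (SE 0.13, log2).

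Cdt1, the partner that brings the MCM helicase to ORC and Cdc6, was fitted with nearly opposite times of day in the 2 genotypes. It lies at chr8:122568015-122573554, inside a read-through gene model (Gm20388) of the same strand. The fitted WT level was 7.91, 8.02, 8.66, 9.18, 9.07 and 8.44 (log2) from ZT0 to ZT20, against 8.59, 8.61, 8.39, 8.15, 8.13 and 8.35 in EpiKO. WT was highest at ZT12, when EpiKO was near its lowest. In the authors' deposited table the curve was 2.57-fold at ZT13.4 in WT and 1.44-fold at ZT2.26 in EpiKO, 12.9 h later or, by the shorter way round the clock, 11.1 h earlier, and the weight was 0.702, with 0.298 for a rhythm in WT only. The recovered interval was 2.0- to 3.26-fold in WT (adjusted p = 2.96e-11) and 1.10- to 1.84-fold in EpiKO, where the rhythm missed the threshold (adjusted p = 0.0631, and 0.0489 without genes of low level). The SE of the shift was 1.34 h and the difference in rhythm passed (adjusted p = 7.45e-11). At ZT12 the fitted EpiKO level was 1.04 below WT, and at ZT0 it was 0.68 above (SE 0.16, log2).

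Geminin, the inhibitor that binds Cdt1, was fitted as flat in EpiKO, near its WT high point. Gmnn lies at chr13:24751845-24761923 on the minus strand. Its fitted WT level was 7.08, 7.03, 7.30, 7.62, 7.67 and 7.40 (log2) from ZT0 to ZT20, and the EpiKO level was 7.72 throughout, above every WT value. The gap was 0.69 at ZT4 and 0.05 at ZT16 (SE 0.11, log2), so the genotypes differed by more than the error at the WT low point and not at its high point. Gmnn was rhythmic in WT only at a weight of 0.884, with a 1.61-fold curve that peaked at ZT14.5, in the authors' deposited table. The recovered interval was 1.27- to 1.98-fold in WT (adjusted p = 0.00131), and in EpiKO the amplitude was 1.24-fold with an upper bound of 1.51-fold (adjusted p = 0.408). The rhythms differed (adjusted p = 0.00509).

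Dtl, the adaptor that targets Cdt1 to CUL4, was fitted, like Cdc6 and Cdt1, with a smaller amplitude and a peak at another time of day in EpiKO. It lies at chr1:191537356-191575544 on the minus strand. The fitted WT level was 7.57, 7.49, 7.95, 8.49, 8.57 and 8.11 (log2) from ZT0 to ZT20, and the EpiKO level was 8.52, 8.43, 8.16, 7.99, 8.08 and 8.35. EpiKO was highest at ZT0 and lowest at ZT12, and WT was lowest at ZT4 and highest at ZT16. In the authors' deposited table the curve was 2.25-fold at ZT14.5 in WT and 1.45-fold at ZT0.648 in EpiKO, 10.1 h later, with a weight of 0.600 for different rhythms and 0.40 for a rhythm in WT only. The recovered interval was 1.73- to 2.87-fold in WT (adjusted p = 1.09e-07) and 1.08- to 1.84-fold in EpiKO, which missed the threshold (adjusted p = 0.0855). The SE of the shift was 1.44 h and the difference passed (adjusted p = 8.5e-08).

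**Figure D2:**
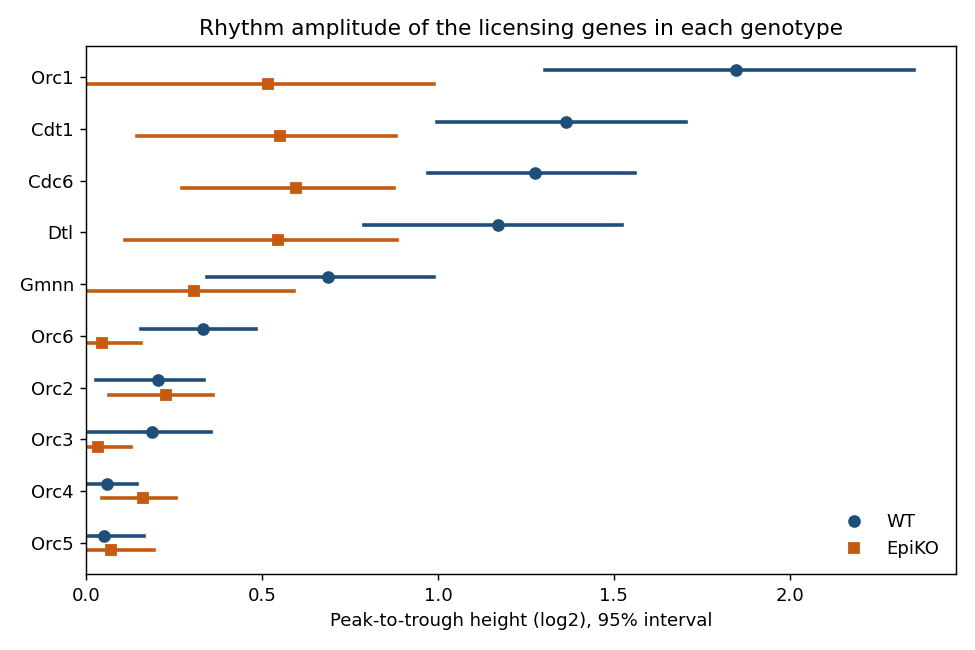
Peak-to-trough height of the daily curve (log2) recovered for each licensing gene in WT (circles) and EpiKO (squares), with 95% intervals. The WT heights of Orc1, Cdt1, Cdc6 and Dtl lie above 1 and their EpiKO heights between 0.5 and 0.6; the remaining genes are below 1 in both genotypes.

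In order of WT amplitude the members ran Orc1, Cdt1, Cdc6, Dtl, Gmnn and Orc6, followed by Orc2 to Orc5. Among the members that passed the test of a WT rhythm, the intervals of Orc1, Cdt1, Cdc6 and Dtl all overlapped each other. That of Gmnn overlapped those of Cdc6, Dtl and Orc6. In EpiKO the amplitude of Cdc6 was 0.467 of that in WT, that of Cdt1 0.389 and that of Dtl 0.459 (log2 heights in the authors' deposited table). Over the 470 genes with different rhythms the median amplitude was 1.64-fold in WT and 1.47-fold in EpiKO, and the median shift was 7.58 h later.

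The 6 members that passed the test of a WT rhythm peaked between ZT13.4 and ZT15.4, with a mean of ZT14.2 and SEs of 0.45 to 0.94 h. The ends of that range, Cdt1 and Cdc6, were 2.0 h apart with an SE of 0.675 h. Their median amplitude was 2.34-fold. Genes of mitosis give a second mark of the cycle: all 14 of 14 had different rhythms, with a mean peak at ZT22.7 in WT and ZT5.79 in EpiKO. Cdc6, Cdt1 and Dtl peaked on average 8.31 h before mitosis genes in WT, at ZT14.4, and 4.59 h before them in EpiKO, at ZT1.20. Counted forward, their shifts of 9.32 to 12.9 h compare with 6.12 to 8.04 h for the mitosis genes, and the difference between these shifts was not tested.

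**Figure D3:**
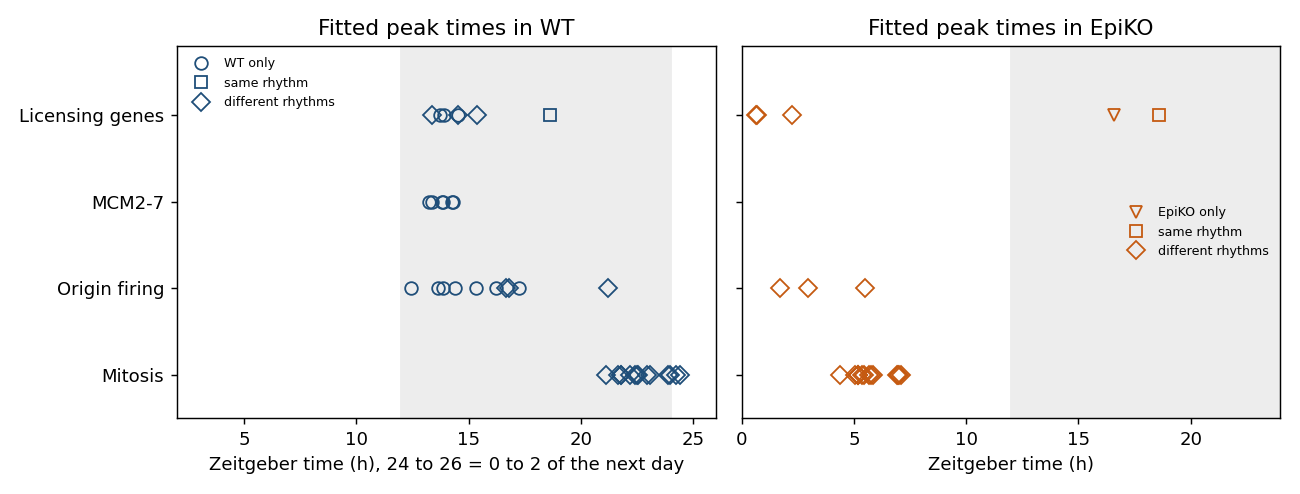
Fitted peak times (zeitgeber time in hours) of licensing, MCM2-7, origin firing and mitosis genes in WT (left) and EpiKO (right), 1 symbol per gene with a rhythm in that genotype, shaped by class. In WT the MCM genes and 6 of the 7 licensing genes lie between ZT13.2 and ZT15.4, ahead of mitosis, with Orc2 at ZT18.6, and in EpiKO no MCM gene has a chosen rhythm.

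The daily mean level was a separate measure from the rhythm. It was lower in EpiKO for 2 of 10 members, against 37.4% of all genes, and higher for 5 of 10, against 32.7%, so a difference in mean was as common across the table as among the members. The largest rises in the authors' deposited table were 0.50 each, for Orc4 (9.21 in WT, 9.70 in EpiKO, log2) and Orc6 (8.39 and 8.90). The recovered SE was 0.03 for Orc4 (adjusted p = 1.55e-79) and 0.04 for Orc6 (adjusted p = 1.04e-34). Of the windows of Orc6, 4.94% are shared with other genes, among them Vps35 on the opposite strand. Vps35 was higher in EpiKO by 0.48 (11.3 in WT, 11.8 in EpiKO). Of the genes sharing windows with Orc4, Acvr2a was higher by 0.18 and Mbd5 had equal means chosen. The part of these neighbours in the rises was not tested. Gmnn was higher by 0.37 (adjusted p = 5.92e-06), Orc5 by 0.29 (adjusted p = 5.97e-14) and Dtl by 0.22 (adjusted p = 0.0198). Orc3 was lower by 0.32, as a difference of -0.32 (SE 0.05, adjusted p = 2.26e-11). Cdt1 had a difference of -0.18 at a weight of 0.545 for unequal means, and the likelihood ratio test missed the threshold (adjusted p = 0.0575). For Orc1, Orc2 and Cdc6 equal means were chosen, with weights of 0.869, 0.854 and 0.873 in the authors' deposited table. The median size of a called difference was 0.51 over all genes. The marker genes of other cell types named above also differed in mean level, with a median difference of 1.13 (log2) for Langerhans cell genes, whose summed level was 11.5 in WT and 12.0 in EpiKO. Their part in the mean differences of the members was not tested.

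**Figure D4:**
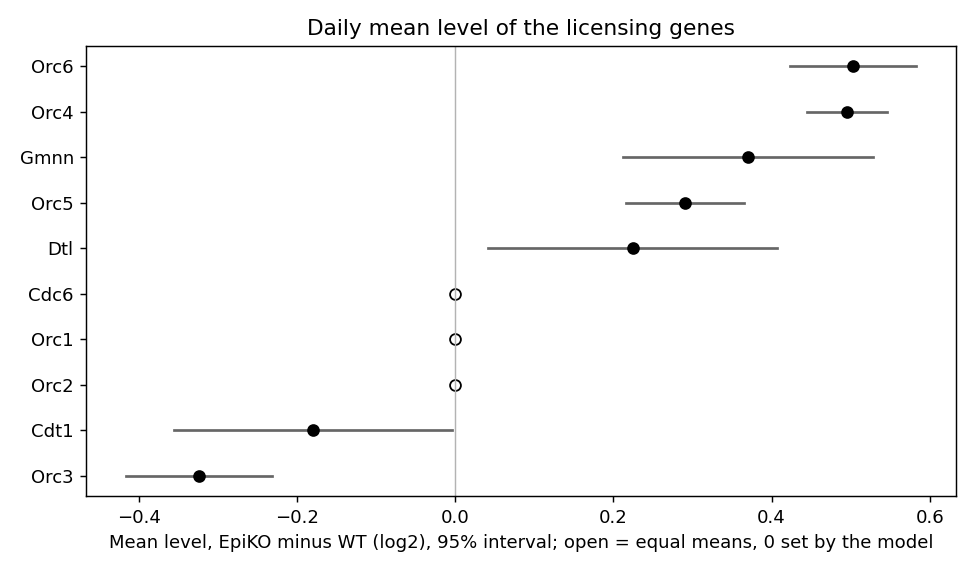
Daily mean level, EpiKO minus WT (log2), of each licensing gene with the 95% interval from the recovered SE. Filled points are genes with unequal means chosen, from -0.32 for Orc3 to 0.50 for Orc6, and open points are genes with equal means, where 0 is set by the model.

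The MCM helicase genes, whose products licensing loads, were 6 of 6 rhythmic in WT only in the authors' deposited table. They peaked between ZT13.2 and ZT14.3 with amplitudes of 1.65- to 2.57-fold, the times of the licensing genes. By the likelihood ratio test all 6 of 6 had a WT rhythm and a difference in rhythm, and 0 of 6 passed in EpiKO, also with no adjustment. Mcm2 had a recovered EpiKO amplitude of 1.35-fold with an upper bound of 1.71-fold.

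Of 12 genes of origin firing, which turn the loaded helicase into a fork, 11 had a WT rhythm and 11 a difference in rhythm, and 2 passed in EpiKO. By weight 7 were rhythmic in WT only, 3 had different rhythms and 2 were unassigned. Gins2, a subunit of the active helicase, was 2.29-fold in WT with a peak at ZT12.4, and Mcm10, which acts in activating it, was 2.79-fold at ZT16.7 in WT and 1.66-fold at ZT2.96 in EpiKO in the authors' deposited table. Dbf4, the activator of the Cdc7 kinase, was named after its values were seen: it peaked at ZT21.2 in WT, near the mitosis genes, and at ZT5.50 in EpiKO in that table.

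Among 12 transcription factors, cyclins and inhibitors of the G1 to S transition, 10 had a WT rhythm and 7 a difference in rhythm. Ccne2, a cyclin of S phase entry, was 2.63-fold at ZT14.8 in WT only, and Ccna2, the S and G2 phase cyclin, was 3.07-fold at ZT22.5 in WT and 1.98-fold at ZT5.39 in EpiKO in the authors' deposited table. E2f1, an E2F activator named after its values were seen, was 2.05-fold at ZT13.4 in WT only. Of 13 genes that turn over Cdt1, Cdc6 and geminin, 8 had a WT rhythm and 4 a difference. Cdc20, an activator of the anaphase-promoting complex, was 3.09-fold at ZT0.0238 in WT and 1.94-fold at ZT6.80 in EpiKO, and Ccnf, the cyclin F adaptor for Cdc6, was 2.72-fold at ZT23.0 and 1.95-fold at ZT5.03 in that table. Of the CUL4 genes that Dtl works with, also named after their values were seen, Cul4a and Rbx1 had no rhythm in the authors' deposited table. Cul4b had a shared rhythm of 1.14-fold and Ddb1 a shared one of 1.13-fold. Pcna, of the same list and named likewise, was 1.51-fold at ZT14.4 in WT only, at a weight of 0.615 in that table. Its WT rhythm and its difference in rhythm passed the likelihood ratio test (adjusted p = 7.27e-06 and 4.99e-06). Of 7 chromatin partners of ORC and licensing, 3 had a WT rhythm and 0 had a difference that passed the likelihood ratio test. With no adjustment the difference had a p under 0.05 for 3 of 7. The share of all genes at that limit was not computed, so this count has nothing to be set against.

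Likeness of daily pattern was measured as the distance between the 4 fitted coefficients (cosine and sine in each genotype, log2), over the 8726 genes whose mean level reached the median. A genotype without a rhythm in the chosen model was taken as flat. Genes of the same class therefore lie closer by construction, and a shared class among near genes is not a result. The genes nearest to Orc1 were Mcm2 (distance 0.245), Mcm3 (0.254) and Pgm2l1 (0.269), all rhythmic in WT only, Pgm2l1 at a weight of 0.517. Nearest to Cdc6 were Tcf19 (0.157), Timeless (0.184) and Lig1 (0.216), all with different rhythms. Timeless was 2.40-fold at ZT14.3 in WT and 1.44-fold at ZT1.46 in EpiKO, and Lig1 was 2.05-fold at ZT14.5 and 1.35-fold at ZT2.24 in the authors' deposited table.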

How the data were processed

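RNA of 24 EpiKO libraries was sequenced as single reads of 51 bases after a stranded polyadenylated RNA kit, per the labels' protocols. The submitters' processing notes name featureCounts 1.6.0, SAMtools 1.3.1, HISAT2 2.2.1, Trimmomatic 0.36, the build mm10 and edgeR; their order, settings and use of strand are not given in the sources used here. A single table, which the authors deposited, holds a dryR comparison with WT. Its model weights, a score from 0 to 1 per model, its coefficients, amplitudes and peak times, and its mean levels (log2, scaling between libraries not stated) were used as the authors deposited them. Columns labelled other than WT were read as EpiKO. The deposited amplitude equalled 2 times the root of the summed squared coefficients, within 1e-06, for 5914 of 5914 WT rhythms.

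The planned tests over libraries were not run, since the table holds no values per library, and depth is unknown. Instead, and chosen after seeing the data, likelihood ratios with 2 degrees of freedom for rhythms and 1 for means were recovered from the weights with 48 libraries, 24 per genotype, taking the dispersion as known. The largest weight of the shared model implies 47.96 libraries. Variances recovered from the EpiKO and the WT rhythm had a median ratio of 0.987 (quartiles 0.945 to 1.03) over 513 genes, and those from the mean difference and the WT rhythm one of 0.995 over 408 genes. On simulated data the steps returned the noise put in, which checks the arithmetic only, since the simulated weights were made with that noise. After adjustment they missed most simulated EpiKO rhythms of a size near those fitted for Cdt1 and Dtl. A smaller share of genes was rhythmic there than in these data, so the adjustment was stricter. The power in these data is therefore not known from it. The p-values rest on the spread between animals as the dryR fit holds it. With the dispersion taken as known, its own uncertainty is left out of them.

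Members, lists and tests were chosen with earlier results of these data known. Named are all members, the 6 partner genes of largest WT amplitude outside Mcm2 to Mcm7, and the 3 genes nearest to Orc1 and to Cdc6, leaving out predicted genes. Dbf4, E2f1, Cul4a, Cul4b, Rbx1, Ddb1, Pcna, marker genes and genes beside a member were named outside that rule, after their values were seen. Shared windows were counted in GENCODE M21 transcripts on either strand. Alternatives were other weight limits, a minimum amplitude or mean difference, a level filter, an F distribution and leaving out members with shared windows. Python 3.11.15, NumPy 2.4.6, pandas 2.3.3, SciPy 1.17.1 and matplotlib 3.10.9 were used.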

Additional observations from a re-analysis of the deposited data

Results flagged for a closer look

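For 5 licensing genes the daily rhythm differed between EpiKO and WT by a likelihood ratio test of the difference itself, recovered from the deposited weights and adjusted by the Benjamini-Hochberg method over all genes. The adjusted p was 1.09e-13 for Cdc6, 7.45e-11 for Cdt1, 8.5e-08 for Dtl, 1.97e-07 for Orc1 and 0.00509 for Gmnn. Cdc6, Cdt1 and Dtl were fitted with a smaller amplitude in EpiKO and peaks 9.32, 11.1 and 10.1 h from those in WT by the shorter way round the clock. The EpiKO rhythm itself passed for Cdc6 and missed the threshold for Cdt1 (adjusted p = 0.0631) and Dtl (adjusted p = 0.0855). Orc1 and Gmnn were assigned a rhythm in WT only.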

How the results depend on the processing

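Of 46 alternative values, 39 were labelled the same. Counts and summed weights had to stay within 1.5 times. The median amplitude and the mean peak time had to move by less than 1 SD over the members rhythmic in WT. The median WT amplitude of these members fell from 1.17 to 0.688 (log2) at a weight limit of 0.8, by less than that SD of 0.594. With a weight limit of 0.8, different rhythms held for 1 member, Cdc6, in place of 3, and a lower mean for 1 in place of 2. With amplitudes under 0.25 (log2) counted as no rhythm, 0 members shared a rhythm in place of 1 and 4 had none in place of 2. With a minimum mean difference of 0.5, 0 members were lower and 1 was higher in EpiKO, in place of 2 and 5. When genes under the 0.25 quantile of mean level were left out, a choice made after seeing the data, 4 members passed the test of a rhythm in EpiKO in place of 1: Orc2 (adjusted p = 0.0423), Orc4 (adjusted p = 0.0428) and Cdt1 (adjusted p = 0.0489) joined Cdc6, and the share of all tested genes that passed rose from 12.4% to 18.1%. The F distribution changed no count of members that passed. No paired analysis was possible because the table holds no value per library, and leaving out a replicate was not run for the same reason. WT libraries are not samples here, so a batch between genotypes cannot be told apart from the genotype.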

Other observations

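Of the members, 5 start head to head with a gene on the opposite strand, and the daily patterns of the pairs were set side by side after their values were seen. Prpf38a, whose start is 87 bases from that of Orc1, had no rhythm in either genotype (weight 0.853 in the authors' deposited table). Ints7, a subunit of the Integrator complex 92 bases from Dtl, had different rhythms at a weight of 0.554: 1.25-fold at ZT15.2 in WT and 1.19-fold at ZT4.93 in EpiKO in the authors' deposited table, and the difference passed the likelihood ratio test (adjusted p = 0.00174). Vps35, a retromer subunit that overlaps Orc6 with starts 170 bases apart, was assigned a rhythm in EpiKO only, of 1.14-fold at ZT16.9, at a weight of 0.569 in that table, and missed the threshold in EpiKO (adjusted p = 0.0673) and for the difference (adjusted p = 0.0530). Rars2, 13 bases from Orc3, followed a shared curve of 1.12-fold with a peak at ZT20.4, and Mbd5, which overlaps Orc4 with starts 769 bases apart, a shared one of 1.25-fold at ZT6.54 in the authors' deposited table. Neither passed the test of a rhythm in WT (adjusted p = 0.101 and 0.271) or in EpiKO (adjusted p = 0.492 and 0.0776).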
